A study of Rattus norvegicus with 6 samples.

Results

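The major urinary proteins and the urinary proteins of the rat are small proteins that the liver and other organs secrete and that leave the body in the urine. Their genes are described here under 6 symbols, Mup5, LOC100912565, LOC259244, LOC100909412, LOC100912610 and LOC100360095, in the livers of rats with and without fibrosis. These genes were chosen by their measured values, the difference in expression between the FL and CL groups, so their own values are a description and were not tested. The 6 symbols matched 7 of the 19616 genes listed, because LOC100909412 stands under a pair of Ensembl identifiers. All 7 passed a filter that asked for an average of 0.1 FPKM in the 6 rats, but both LOC100909412 genes reached it only through the CL group, and a gene that passes in this way had to differ.

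Major urinary proteins, called alpha-2u globulins in the rat, are lipocalins, barrel-shaped carriers of small hydrophobic molecules such as pheromones. Hepatocytes of adult males make them in large amounts under the control of androgens, glucocorticoids and the pulsed growth hormone secretion of males, and the kidney passes them into the urine. The urinary proteins of the Rup type have another fold and belong to the Ly6/uPAR family of cysteine-rich proteins.

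Livers of 3 rats with hepatic fibrosis (FL2, FL5 and FL12) and of 3 control rats (CL5, CL6 and CL7) were compared by RNA sequencing, with 1 library for each rat. All were male SD rats. The FL rats had been injected intraperitoneally with CCl4 (carbon tetrachloride, a solvent toxic to hepatocytes) mixed with an equal volume of olive oil, with 2 mL/kg given 2 times in each of 5 weeks, and the CL rats received olive oil alone at that volume. Expression was given as FPKM, fragments of a gene scaled by transcript length and library size. The paper states a number of clean reads without tying it to a rat, so the depth of each library is unknown, and the relative depth read from steps in the low values of 114 U6 genes was 1, 0.656 and 0.84 in CL5, CL6 and CL7 and 0.677, 0.75 and 0.677 in FL2, FL5 and FL12. The libraries were liver by their markers, since Alb was at 31431 to 33392 FPKM in the CL rats and 24149 to 25209 FPKM in the FL rats.

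Mup5 (ENSRNOG00000047613, chromosome 5), the most abundant of the genes, encodes a major urinary protein. It was at 24937 in CL5, 48588 in CL6 and 36722 FPKM in CL7 and at 55.0 in FL2, 209 in FL5 and 33.0 FPKM in FL12. CL6 was the highest rat and FL12 the lowest, and the groups did not overlap. The CL mean was 36749 ± 11826 FPKM and the FL mean 99.1 ± 95.9 FPKM (SD, n = 3 each), a ratio of 371. Even the lowest CL rat stood 119-fold above the highest FL rat. In the CL group Mup5 was the gene with the highest mean FPKM, ahead of Alb (albumin), Mt-co1, Tf (transferrin) and Ttr (transthyretin), and it ranked first in CL6 and CL7 and behind only Alb in CL5. In the FL rats 577, 141 and 968 genes had a higher FPKM than Mup5 in FL2, FL5 and FL12, and the highest means were those of Alb, Mt-co1 and Tf. Hp (haptoglobin) and Hpx (hemopexin) came next through FL2, at 7491 and 7001 FPKM there, 2498 and 1899 FPKM in FL5 and 3546 and 2759 FPKM in FL12.

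LOC100912565 (ENSRNOG00000050595, chromosome 5), described in the table as major urinary protein-like, was at 3856 in CL5, 5348 in CL6 and 3923 FPKM in CL7. Its values in FL2, FL5 and FL12 were 7.20, 25.1 and 4.28 FPKM. FL5 was again the highest of the FL rats and FL12 the lowest. The means were 4376 ± 843 and 12.2 ± 11.3 FPKM (SD, n = 3 each), a ratio of 359, and the groups did not overlap. LOC259244 (ENSRNOG00000009273, chromosome 5), an alpha-2u globulin, was at 1180 in CL5, 2302 in CL6 and 1672 FPKM in CL7 and at 2.10 in FL2, 8.06 in FL5 and 1.49 FPKM in FL12. The order of the rats was the same as for Mup5 within both groups. The ratio of its means, 1718 ± 562 to 3.88 ± 3.63 FPKM (SD, n = 3 each), was 442. These ratios rest on FL5, and without it they were 835 for Mup5, 762 for LOC100912565 and 957 for LOC259244.

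The proportions of these genes to Mup5 differed far less than their levels. LOC259244 was at 4.73%, 4.74% and 4.55% of Mup5 in CL5, CL6 and CL7 and at 3.82%, 3.85% and 4.51% in FL2, FL5 and FL12. LOC100912565 was at 15.5%, 11.0% and 10.7% of Mup5 in the CL rats and at 13.1%, 12% and 13% in the FL rats. The proportions overlapped between the groups for LOC100912565 and lay slightly lower in the FL rats for LOC259244. Copies of this family are alike, and uniquely placed reads were counted, so how reads were split between such copies is uncertain.

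The remaining major urinary protein genes were expressed at low levels. LOC100912610 (ENSRNOG00000033415, chromosome 5), annotated as an unprocessed pseudogene, was at 53.3 in CL5, 34.9 in CL6 and 26.5 FPKM in CL7, was listed at 0 in FL2, and was at 0.30 and 0.11 FPKM in FL5 and FL12. LOC100909412, which is described as major urinary protein-like and also lies on chromosome 5, had a pair of genes, and the one under ENSRNOG00000050499 was at 25.2, 21.3 and 18.4 FPKM in the CL rats and at 0.07 in FL2 and 0.10 FPKM in FL5, with FL12 listed at 0. The other, under ENSRNOG00000042543, was at 0.08 in CL5, 0.59 in CL6 and 0.43 FPKM in CL7 and listed at 0 in all FL rats, so no fold is given. In LOC100912610 and in the more abundant LOC100909412 gene CL5, not CL6, was the highest rat. Values this close to 0.1 FPKM rest on few reads.

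LOC100360095 (ENSRNOG00000043131, chromosome 8), described as urinary protein 1-like, is the only one of the Rup type among these genes. It was at 635 in CL5, 706 in CL6 and 482 FPKM in CL7 and at 0.45 in FL2, 10.4 in FL5 and 0.78 FPKM in FL12. FL5 stood apart from the other FL rats, 23.0-fold above FL2, and still far below the CL rats. The means were 608 ± 114 and 3.86 ± 5.62 FPKM (SD, n = 3 each), a ratio of 157, which was 988 without FL5. Unlike LOC259244, it varied in its proportion to Mup5 from rat to rat, with 2.55%, 1.45% and 1.31% in the CL rats and 0.818%, 4.95% and 2.36% in the FL rats.

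**Figure D1:**
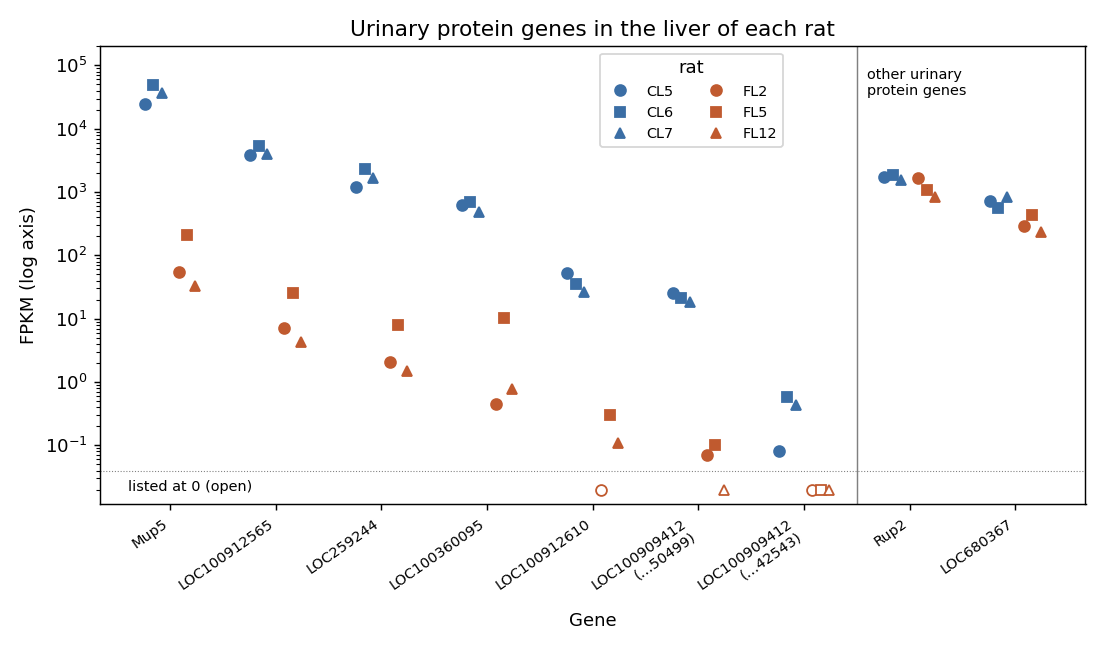
FPKM of the 7 genes and of Rup2 and LOC680367 in each rat, on a log axis, with 1 symbol for each rat (CL rats in blue, FL rats in orange, open symbols at the bottom for values listed at 0). Mup5 ranged from 24937 to 48588 FPKM in the CL rats and from 33.0 to 209 FPKM in the FL rats, whereas Rup2 overlapped between the groups.

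The spread between rats was wider in the FL group, with the highest FL rat 6.33-fold above the lowest for Mup5, 5.86-fold for LOC100912565 and 5.41-fold for LOC259244, against 1.95-fold, 1.39-fold and 1.95-fold between the CL rats. In all 7 genes every FL rat was below every CL rat, and 4.78% of the 14864 genes tested had this order. The members were chosen on this contrast, so nothing is read from their count. FL5 was the highest FL rat in 6 of the 7 genes. On the log2(FPKM + 0.1) scale, which shrinks differences between low values, the FL minus CL difference was -8.93 for Mup5, -8.86 for LOC100912565, -9.08 for LOC259244 and -8.45 for LOC100360095. It was -7.50 for LOC100912610, -7.16 for the first LOC100909412 gene and -2.01 for the other, which was listed at 0 in the FL rats. The median was -8.45, or -8.66 without the gene listed at 0, beside a median of 0.29 over all genes tested. That background moved to 0.08 with median scaling and to -0.05 with quantile normalization, and the members' median was then -8.67 and -8.54.

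Together the 7 genes made up 9.92%, 16.7% and 13.6% of the summed FPKM of CL5, CL6 and CL7. Their share was 0.0210%, 0.0929% and 0.0146% in FL2, FL5 and FL12. The mean share was 13.4% ± 3.42 in the CL group and 0.0428% ± 0.0435 in the FL group (SD, n = 3 each; 0.0178% without FL5), and Mup5 alone was 84.5% of the members' FPKM in the CL group and 83.1% in the FL group. Alb took 10.8%, 9.23% and 10.1% of the summed FPKM in the CL rats and 7.81%, 9.20% and 9.26% in the FL rats. Outside the members the summed FPKM was 278739, 283466 and 272414 in the CL rats and 309162, 272097 and 272071 in the FL rats.

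Markers of the cell types in the liver were read beside these values. A called gene had an adjusted p under 0.05 (limma with Benjamini-Hochberg adjustment over 14864 genes) and at least a 2-fold difference, and of all genes tested 0.935% were called lower and 9.29% higher in the FL group. In bulk tissue, fewer cells of a type and less RNA per cell cannot be told apart. Of 7 hepatocyte-like markers, 0 passed the limits for a called gene in limma (2 had an unadjusted p under 0.05, both higher in the FL group), and their summed FPKM was 44418, 42090 and 42601 in CL5, CL6 and CL7 and 33184, 35478 and 34709 in FL2, FL5 and FL12, with Alb the most abundant. These sums did not overlap. Alb and Ttr were lower in every FL rat than in every CL rat, and Apoa1 was higher. For Alb limma's SE was 0.98 where its prior follows the mean and 0.12 where it does not. The lack of calls therefore does not show that these markers were unchanged. Of 6 stellate cell or myofibroblast-like markers 4 were higher in the FL group, and their sum was 66.3, 70.6 and 64.9 FPKM in the CL rats and 179, 486 and 450 FPKM in the FL rats, with Col3a1 the most abundant. Among 5 macrophage-like markers 2 were higher, with sums of 84.3, 80.5 and 83.6 FPKM in the CL rats and 200, 172 and 104 FPKM in the FL rats and Clec4f the most abundant in the CL rats. In the FL rats Clec4f was at 66.6, 57.4 and 26.3 FPKM and Marco at 79.0, 43.9 and 31.5 FPKM.

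Of 4 cholangiocyte-like markers (sums of 5.18 to 10.4 FPKM over all rats, Epcam the most abundant), 3 endothelial-like markers (34.3 to 53.4 FPKM, Lyve1) and 4 lymphocyte-like markers (1.03 to 4.99 FPKM, Cd8a), 0 were called by limma, and at an unadjusted p under 0.05 there were 0, 1 and 1. Of 3 cycling markers 1, Mki67, was higher, with sums of 1.86 to 3.54 FPKM in the CL rats and 2.70 in FL2, 12.5 in FL5 and 10.3 FPKM in FL12. None of these markers was listed at 0 in any rat. The genes of the Y chromosome (Ddx3y, Eif2s3y, Kdm5d and Uty) were expressed in all rats. The part of these cell types in the values of the urinary protein genes was not tested.

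Other genes of the same descriptions were outside the choice and could be tested. Rup2, a urinary protein gene of chromosome 8 like LOC100360095, was at 1720 in CL5, 1829 in CL6 and 1542 FPKM in CL7 and at 1645 in FL2, 1080 in FL5 and 832 FPKM in FL12. The groups overlapped through FL2. Its means were 1697 ± 145 and 1185 ± 417 FPKM (SD, n = 3 each), and its log2 difference of -0.57 (SE 0.32) did not pass the limma test (adjusted p = 0.238). Without FL2 the adjusted p was passed at less than 2-fold (log2 difference -0.84, limma adjusted p = 0.0342), and over all alternatives it ran from 0.0342 to 0.521. With LOC100360095 at 3.86 FPKM in the FL group, Rup2 was there the more abundant of the pair, and it had been so in the CL group too.

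LOC680367, a further gene of the Rup type on chromosome 8, was at 712 in CL5, 553 in CL6 and 847 FPKM in CL7 and at 291 in FL2, 440 in FL5 and 232 FPKM in FL12. The groups did not overlap, and FL5 was the FL rat nearest to the CL rats. It was called lower (log2 difference -1.16, SE 0.28, limma adjusted p = 0.0278), from 704 ± 147 to 321 ± 107 FPKM (SD, n = 3 each). The call was lost without CL5, CL7 or FL12 (limma adjusted p from 0.0776 to 0.103), without a filter on low values (0.0548) and with quantile normalization (0.0987). Over all alternatives the adjusted p of LOC680367 ran from 0.0212 to 0.103 in limma, and the difference was negative in each of them. Obp1f (ENSRNOG00000058697), an odorant binding protein gene, was near 1 FPKM in both groups and was not called (limma adjusted p = 0.60). LOC500473, a further major urinary protein gene, was listed at 0 in all FL rats and at up to 0.08 FPKM in the CL rats, and the other Obp1f gene was at 0 to 0.08 FPKM, so neither was tested.

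Many liver genes differ between male and female rats, as the major urinary protein genes do, and these were read as lists. Of 9 male-biased genes tested, 4 were called, all lower, every difference was negative, and their median log2 difference was -0.63 beside 0.29 over all genes. The 9 stand for 7 symbols, since Cyp2c13 and Cyp4a2 each have a pair of Ensembl identifiers, of which only 1 was called. Cyp2c11, the main male-specific cytochrome P450 of the rat liver, was at 1188 in CL5, 845 in CL6 and 738 FPKM in CL7 and at 20.5 in FL2, 134 in FL5 and 7.76 FPKM in FL12. FL5 was the highest and FL12 the lowest FL rat, the order seen in Mup5, whereas CL5 was the highest CL rat for Cyp2c11 and the lowest for Mup5. The groups did not overlap. Its log2 difference was -5.02 (SE 0.87, limma adjusted p = 0.00981), and it was -6.15 without FL5 and -4.10 without FL12. The likeness of these orders was not tested.

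The other male-biased genes that fell encode cytochromes P450 too. Cyp4a2 (ENSRNOG00000030154) fell from 123 ± 33.8 to 31.4 ± 8.48 FPKM (SD, n = 3 each), with a limma adjusted p of 0.00437. Cyp3a18 was at 295 ± 29.9 and 99.3 ± 66.9 FPKM (SD, n = 3 each) and was called lower (limma adjusted p = 0.0217). Cyp2c13 (ENSRNOG00000049464) was at 1377 ± 72.1 and 636 ± 307 FPKM (SD, n = 3 each) and passed narrowly (limma adjusted p = 0.0492). FL5 was the highest FL rat in these 3 genes as well. Cyp3a18 missed the threshold without CL5, CL6, CL7 or FL12 (limma adjusted p from 0.0559 to 0.0687, and from 0.00422 to 0.0687 over all alternatives), and Cyp2c13 lost its call in 11 alternatives, among them each rat left out but FL5 (limma adjusted p from 0.0489 without FL2, where the log2 difference was -0.87, to 0.131, and from 0.0270 to 0.219 over all alternatives).

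Hsd3b5, Hsd11b1, Slco1a1 and the other Cyp4a2 gene (ENSRNOG00000009741) did not pass, with log2 differences of -0.63, -0.54, -0.35 and -0.01. In these FL5 was not the highest FL rat. Hsd3b5 was at 102 in FL2 and 92.0 FPKM in FL5, Hsd11b1 at 61.7 and 45.6 FPKM, and Slco1a1 at 63.4 and 38.7 FPKM. This Cyp4a2 gene was at 46.9 in FL5 and 47.6 FPKM in FL12. The other Cyp2c13 gene (ENSRNOG00000013241) was not called either (log2 difference -0.22, limma adjusted p = 0.826). It was at 1.14 to 4.84 FPKM in the CL rats and at 0.88 in FL2, 4.37 in FL5 and 1.93 FPKM in FL12. The groups overlapped.

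Of 8 female-biased genes tested, 2 were called, both higher, and their median log2 difference was 0.98. Of the 8, Tox averaged 0.06 and 0.29 FPKM in the CL and FL groups. It reached the filter only through the FL group, so its log2 difference of 1.26 is set aside. The middle value of the others was the 0.70 of Sult2a1. Cyp2c12, the female-specific cytochrome P450 of the rat liver, was at 2.47 in CL5, 6.89 in CL6 and 6.37 FPKM in CL7 and at 62.3 in FL2, 62.0 in FL5 and 58.9 FPKM in FL12. The FL rats were alike and all above the CL rats, with a log2 difference of 3.65 (SE 0.34, limma adjusted p = 0.00166). Trim24, a transcriptional cofactor, was higher at 4.40 ± 2.32 against 1.37 ± 0.137 FPKM (SD, n = 3 each; limma adjusted p = 0.0188), a call lost without CL6 or CL7 (0.0559 and 0.0716) and with quantile normalization (0.0891). Over all alternatives its adjusted p ran from 0.0150 to 0.0891 in limma. Prlr, the prolactin receptor, was at 7.62 in FL2, 0.52 in FL5 and 4.32 FPKM in FL12 and at 0.31 to 1.47 FPKM in the CL rats, and it was called only without FL5 (limma adjusted p = 0.257 with all rats, 0.0449 without FL5 and up to 0.536 over all alternatives). Srd5a1, Sult2a1 and Cux2 were not called, with log2 differences of -0.07, 0.70 and 0.70.

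The growth hormone axis, through which the liver senses the sex-specific secretion of the hormone, changed less than 2-fold in its genes that passed. Of 11 genes tested 0 were called by limma, while 1 higher and 4 lower genes had an unadjusted p under 0.05. The adjusted p alone was passed by Jak2 in the higher direction and by Igf1, Ghr and Igfals in the lower direction. Igf1, a hormone that the liver secretes in answer to growth hormone, was at 254 in CL5, 297 in CL6 and 301 FPKM in CL7 and at 178 in FL2, 150 in FL5 and 129 FPKM in FL12. The groups did not overlap (log2 difference -0.91, SE 0.17, limma adjusted p = 0.0119), and median scaling (-1.13) or leaving out FL2 (-1.03) took Igf1 past the 2-fold limit, and without FL2 Bcl6, a repressor of transcription, was called higher (log2 difference 1.05, and 0.36 with all rats). Without CL7 Igf1 missed the adjusted p (0.0522 in limma).

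Ghr, the growth hormone receptor, was at 89.7 ± 4.42 and 56.1 ± 8.16 FPKM (SD, n = 3 each; limma adjusted p = 0.0150). Igfals, which belongs to a complex that holds Igf1 in the blood, was at 59.4 ± 3.51 and 42.8 ± 5.08 FPKM (SD, n = 3 each; limma adjusted p = 0.0361). Jak2, the kinase of the receptor, was at 2.50 ± 0.180 and 3.89 ± 0.658 FPKM (SD, n = 3 each; limma adjusted p = 0.0420). Ghr missed the adjusted p without CL5, CL6 or FL5 (up to 0.0529 in limma), Igfals without trend and without each rat but FL2 (up to 0.127), and Jak2 in 10 alternatives (up to 0.438 with quantile normalization). Socs2, an inhibitor induced by the receptor, was at 14.2 in CL5, 90.1 in CL6 and 69.4 FPKM in CL7 and at 28.1 in FL2, 12.5 in FL5 and 5.30 FPKM in FL12. CL5 lay within the FL range, and the test was not passed (limma adjusted p = 0.130). Cish, another such inhibitor, was at 0.74 in CL5, 11.2 in CL6 and 10.4 FPKM in CL7 and at 2.62, 1.15 and 0.87 FPKM in the FL rats (limma adjusted p = 0.246). Without CL5, the CL rat in which Mup5 was lowest, both were called lower, Socs2 with a limma adjusted p of 0.0412 (up to 0.325 over all alternatives).

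**Figure D2:**
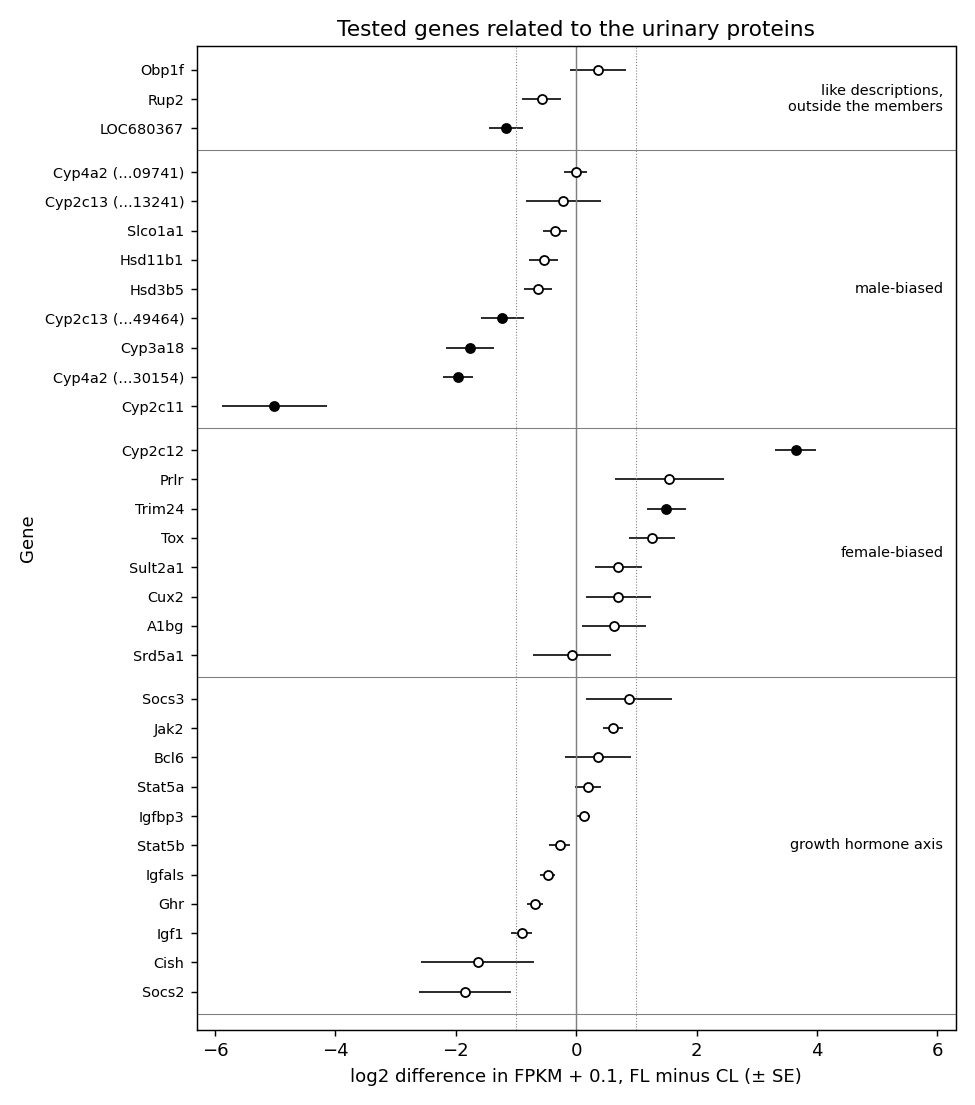
Log2 difference of FPKM + 0.1 between the FL and CL groups, with limma's SE as bars, for the tested genes of like description and for the male-biased, female-biased and growth hormone axis lists. Filled points are called genes, and dotted lines mark 2-fold. All 9 male-biased genes lie at or below 0, with Cyp2c11 at -5.02, and Cyp2c12 lies at 3.65 among the female-biased genes.

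Hormone receptors and transcription factors of the liver were read next, and of 19 genes tested 2 were called, both higher. Lower calls came only under alternatives, for Esr1 and Foxa2. Dbp, a clock-controlled factor, was at 0.46 in CL5, 0.91 in CL6 and 0.81 FPKM in CL7 and at 25.6 in FL2, 27.1 in FL5 and 31.8 FPKM in FL12. Its groups were far apart (log2 difference 5.13, SE 0.23, limma adjusted p = 1.26e-04). Hlf, of the same family, was at 3.36 ± 0.835 and 7.10 ± 1.84 FPKM (SD, n = 3 each; limma adjusted p = 0.0249), and this call was lost in 8 alternatives, among them those without CL5, CL6, FL2 or FL12 (limma adjusted p from 0.0517 to 0.0765, and up to 0.135 over all alternatives).

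The third factor of that family, Tef, and Esr1, the estrogen receptor, passed the adjusted p but differed less than 2-fold, with log2 differences of 0.87 and -0.94 (limma adjusted p = 0.0123 and 0.0131). Esr1 was called lower with median scaling (log2 difference -1.16), with quantile normalization (-1.28) and without FL12 (-1.09), and without CL7 it missed the adjusted p (0.0593 in limma), as Tef did (0.0533, and 0.0537 with quantile normalization). Foxa2, a liver transcription factor, had a log2 difference of -1.06 (limma adjusted p = 0.0566) and was called lower without CL5 or FL2 (limma adjusted p = 0.0253 and 0.0289) and with scaling to the same sum outside the members (0.0438). Hnf4a, Cebpa, Nr3c1 (ENSRNOG00000048800, the glucocorticoid receptor) and Insr, the insulin receptor, were not called, with log2 differences of -0.21, 0.54, 0.06 and 0.01.

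Hepatocytes also secrete most plasma proteins. Of 19 such genes 0 were called by limma, and 2 higher and 1 lower gene had an unadjusted p under 0.05. Alb was at 33392 in CL5, 31431 in CL6 and 31992 FPKM in CL7 and at 24149 in FL2, 25052 in FL5 and 25209 FPKM in FL12. The groups did not overlap, and the log2 difference was -0.38 with an SE of 0.98 where limma's prior follows the mean and of 0.12 where it does not. The adjusted p was 0.804 in the first of these limma fits and 0.0789 in the second. Over all alternatives it ran from 0.0789 to 0.952 in limma. Tf, Ttr and Hp had log2 differences of 0.31, -0.63 and 0.73. Leaving out FL2 or FL5 gave 1 call each, Apoc3 lower and Orm1 higher.

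Among 7 other lipocalin genes 1 was called, in the higher direction. Lcn2, a lipocalin of the acute phase that binds bacterial siderophores, was at 1.35 in CL5, 1.35 in CL6 and 3.75 FPKM in CL7 and at 490 in FL2, 13.1 in FL5 and 168 FPKM in FL12. FL5, the highest FL rat for Mup5, was here the lowest FL rat, and the groups did not overlap. The log2 difference was 5.68 (SE 1.15, limma adjusted p = 0.0152), and the call was lost without CL5, CL6 or FL12 (limma adjusted p from 0.0511 to 0.0536, and from 0.00365 to 0.0536 over all alternatives), with log2 differences of 5.45, 5.45 and 5.33. The difference was 4.56 without FL2 and 7.16 without FL5. Orm1, an acute phase lipocalin, was at 166, 254 and 245 FPKM in the CL rats and at 3920 in FL2, 296 in FL5 and 895 FPKM in FL12 (limma adjusted p = 0.0885). It was called higher without FL5 (limma adjusted p = 0.0305, and up to 0.205 over all alternatives). Rbp4, Ambp and Apom were not called, with log2 differences of -0.15, -0.36 and 0.14. C8g passed the adjusted p (0.0123 in limma) with a log2 difference of -0.59, and missed it only without CL6 (0.05002 in limma).

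Of 6 tested genes of the Ly6/uPAR family, to which the Rup proteins belong, 3 were called, all higher. The call of Lypd1 is set aside, because it reached the filter only through the FL group and so had to differ, which leaves Psca and Ly6e. Psca was at 0.10 in CL5, 0.08 in CL6 and 0.25 FPKM in CL7 and at 1.69 in FL2, 8.47 in FL5 and 2.62 FPKM in FL12 (log2 difference 3.90, SE 0.56, limma adjusted p = 0.00537). Ly6e was at 7.62 ± 1.94 and 16.4 ± 3.25 FPKM (SD, n = 3 each; limma adjusted p = 0.0123), and it fell short of 2-fold without CL6 (log2 difference 0.98) or FL5 (0.98), with median scaling (0.88) and with quantile normalization (0.88). Lypd1 was at 0.04, 0 and 0.01 FPKM in the CL rats and at 0.30, 0.47 and 0.78 FPKM in the FL rats. Cd59 was lower by less than 2-fold (log2 difference -0.44, limma adjusted p = 0.04), and it missed the adjusted p in 7 alternatives (up to 0.129 in limma). Lynx1 and Plaur were not called, with log2 differences of -0.61 and 1.16, though Lynx1 was called lower with quantile normalization (-1.15) and Plaur higher without FL2 (1.52). These genes were low beside Rup2 and LOC680367, since Cd59, the most abundant, was at 13.3 to 20.6 FPKM.

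The pattern of Mup5 over the 6 rats was compared with that of 10527 genes that averaged 1 FPKM or more, by Pearson's r of log2(FPKM + 0.1). The members, Rup2 and LOC680367 were left out of these genes. Copies of the family under other symbols, described at the end, were not left out. Most alike among them were Pald1 (r = 0.999), Fam214a (0.997), Pim2 (0.996), Crem (0.992) and Akr1c2 (0.992). The points share the groups and libraries, and such values describe the likeness without a test. The sizes were unlike, since Pald1 was at 20.3 and 15.8 FPKM in the CL and FL groups, and Akr1c2, a hydroxysteroid dehydrogenase, at 13.8 and 3.58 FPKM. Within the members, r with Mup5 was 0.9997 for LOC259244, 0.999 for LOC100912565, 0.990 and 0.877 for the more and the less abundant LOC100909412 gene, 0.985 for LOC100360095 and 0.983 for LOC100912610.

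Promoters are shown to compare a pair of major urinary protein genes whose ratios were near each other, Mup5 and LOC259244, with a Rup pair whose ratios were far apart, LOC100360095 and Rup2. Of the members, Mup5, LOC259244 (as Mup4l4) and LOC100360095 had a promoter in the RefSeq table of the GRCr8 build, and LOC100912565, LOC100909412 and LOC100912610 did not. The windows run from 250 bases before to 50 bases after the start of the gene, on the minus strand, at chr5:79999646-79999945 for Mup5, chr5:79707758-79708057 for LOC259244, chr8:42933818-42934117 for LOC100360095 and chr8:43551407-43551706 for Rup2. Both strands were searched for TTCNNNGAA (STAT5), TTATGTAA and TTATGCAA (Dbp and its relatives), TTGCNNAA (C/EBP), TGTTTAC and TGTTTGC (Foxa), TGTTCT (an arm of the glucocorticoid receptor element), TATAAA and the motif of HNF1. Capitals mark the matches, and none of them overlapped another.
Mup5: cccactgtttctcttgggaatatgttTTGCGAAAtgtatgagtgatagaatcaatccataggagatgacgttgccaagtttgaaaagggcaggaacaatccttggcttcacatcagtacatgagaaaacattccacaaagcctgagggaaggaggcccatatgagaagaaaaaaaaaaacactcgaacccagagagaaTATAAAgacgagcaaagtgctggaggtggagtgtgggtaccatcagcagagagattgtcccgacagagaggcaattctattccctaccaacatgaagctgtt
LOC259244: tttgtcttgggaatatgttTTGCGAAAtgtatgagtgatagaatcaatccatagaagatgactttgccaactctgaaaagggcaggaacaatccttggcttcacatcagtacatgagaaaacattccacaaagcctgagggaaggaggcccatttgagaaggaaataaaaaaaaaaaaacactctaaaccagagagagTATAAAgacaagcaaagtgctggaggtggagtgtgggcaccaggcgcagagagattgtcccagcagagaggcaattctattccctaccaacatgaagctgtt
LOC100360095: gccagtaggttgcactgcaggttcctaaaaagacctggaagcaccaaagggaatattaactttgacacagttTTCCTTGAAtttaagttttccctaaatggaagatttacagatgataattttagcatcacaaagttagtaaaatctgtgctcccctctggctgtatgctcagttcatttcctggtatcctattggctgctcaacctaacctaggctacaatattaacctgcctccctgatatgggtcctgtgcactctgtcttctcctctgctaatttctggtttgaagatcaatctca
Rup2: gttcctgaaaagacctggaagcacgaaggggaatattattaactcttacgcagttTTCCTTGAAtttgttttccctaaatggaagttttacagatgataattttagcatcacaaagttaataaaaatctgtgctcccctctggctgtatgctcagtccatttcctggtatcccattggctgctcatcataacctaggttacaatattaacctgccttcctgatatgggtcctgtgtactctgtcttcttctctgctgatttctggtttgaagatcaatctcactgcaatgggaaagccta

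Mup5 and LOC259244 were identical at 90.2% of aligned positions. Both held TTGCGAAA, with its first base at -224 and -231 from the start, and TATAAA, at -52 in both. The window of LOC500473 (as Mup18), a major urinary protein gene outside the members, is not shown. It was identical to Mup5 at 40.6% of aligned positions and to LOC259244 at 40.4%. It held neither TTGCNNAA nor TATAAA, and its only match was TGTTCT, so the shared letters are not common to all promoters of such genes. LOC100360095 and Rup2 were identical at 81.1% of aligned positions, and both held TTCCTTGAA, at -178 and -195. These are the genes whose CL means were 157-fold (988-fold without FL5) and 1.43-fold the FL means. Mup5 and LOC100360095 were identical at 42.5% of aligned positions, and Mup5 and Rup2 at 43.5%. Of 33469 promoters in the table, 10.6% held TTGCNNAA, 14.2% TATAAA and 8.87% TTCNNNGAA. The motifs without a match in the windows shown were held by 0.893% (TTATGTAA), 0.864% (TTATGCAA), 3.78% (TGTTTAC), 4.88% (TGTTTGC), 20.7% (TGTTCT) and 0.335% (HNF1) of promoters. A match describes the letters of the window and no binding.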

How the data were processed

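RNA from 6 livers was sequenced after removal of ribosomal RNA. The authors trimmed reads with FASTX-Toolkit 0.0.13, aligned them with TopHat2, counted uniquely placed reads and deposited FPKM for each gene and rat, with no scaling between rats stated. Per the paper the genome was GRCh38, although the gene identifiers are Ensembl's for the rat. The authors called genes with edgeR on counts, which were not used here. In the table, 2 further columns matched no sample and were not used.

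For the FL and CL groups (3 rats each), log2(FPKM + 0.1) was compared with limma 3.58.1 in R 4.3.3, with a mean-dependent prior (trend). A filter kept the 14864 genes averaging 0.1 FPKM or more, and Benjamini-Hochberg adjustment covered all of them. Called genes had an adjusted p under 0.05 and at least a 2-fold difference. The members and lists were chosen with earlier results of these data known. Named were the members, genes of like symbol or description, of each list the called genes and up to 4 others of highest mean FPKM, the 5 genes most like Mup5 and the 5 of highest mean FPKM in each group. Jak2, Cish, Tef, Esr1, Foxa2, Bcl6, C8g, Apoc3, Tox, Cyp2c13 under ENSRNOG00000013241 and the marker genes fall outside this rule and were named after their values were seen. Genes of the lists that the table lacked (Cyp2a2, Cyp3a2, Sult1e1, Sult2a2, Cyp2a1, Pecam1, Xist and 6 of the Ly6 family) were not analysed here.

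Other settings tried were pseudocounts of 1 and 0.01, no filter and a filter of 1 FPKM, median scaling, quantile normalization, scaling to the same summed FPKM outside the members, limma with a robust prior and without trend, no fold limit and each rat left out. A fit without the members was added after seeing the data. The procedure was tested on simulated data. Checked for duplicates, pairs of rats had identical values in 0.990% to 2.87% of genes above 0 in both. Promoters were compared with Biopython 1.88 in Python 3.11.15, and figures drawn with matplotlib 3.10.9.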

Additional observations from a re-analysis of the deposited data

How the results depend on the processing

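The alternatives were read for 50 of the tested genes named, not for the marker genes, Tox or Cyp2c13 under ENSRNOG00000013241, and gave 845 values. Of these 763 kept their direction and side of the limits, 39 fell short of the limits, 24 newly passed them and 19 changed sign. The 24 include Igf1, Ghr, Igfals, Jak2, Tef, Esr1, C8g and Cd59 in the setting without a fold limit. There their values did not change and only the limit was dropped. The changes of sign were in genes that were not called. Their log2 differences were, with median scaling, -0.22 for Insr, -0.17 for Nr3c1 and -0.086 for Apom, with quantile normalization -0.16 for Insr, -0.076 for Nr3c1, -0.19 for Obp1f, 0.42 for Alb and 0.015 for Rbp4, and with scaling outside the members -0.023 for Insr. Leaving out each rat gave -0.0053 to 0.025 for Insr, -0.035 to 0.12 for Nr3c1, -0.11 to 0.17 for Cyp4a2 under ENSRNOG00000009741, -0.78 to 0.74 for Srd5a1, -0.13 to 1.05 for Bcl6 and -0.079 to 0.67 for Obp1f. Their cause was not tested.

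Counts of called genes that moved by over 1.5 times were as follows. Quantile normalization left 1 female-biased gene, median scaling called 1 growth hormone axis gene, and a pseudocount of 1 or limma without trend left 1 receptor or factor. Without a fold limit there were 4 growth hormone axis genes, 4 receptors or factors and 2 lipocalins. Smaller moves were 3 male-biased genes with either pseudocount, without a filter, with quantile normalization, with scaling outside the members and without trend, 3 female-biased genes without a filter or trend, 3 receptors or factors with scaling outside the members, 2 Ly6 genes with a pseudocount of 1, a filter of 1 FPKM or median scaling, and 4 Ly6 genes without a fold limit (all these Ly6 counts with Lypd1 where it was called). Tox was the female-biased gene added without a filter, without trend and without FL2. Where the filter was used, Tox passed it only through the FL group. Equal counts of receptors or factors held unlike genes, since Esr1 or Foxa2, lower, took the place of Hlf. Leaving out each rat gave 2 to 4 male-biased genes, 1 to 3 female-biased genes, 0 to 2 growth hormone axis genes, 1 to 2 receptors or factors, 0 to 1 secreted protein genes, 0 to 2 lipocalins and 2 to 4 Ly6 genes. The members' median was -7.61 with a pseudocount of 1 and -8.92 with 0.01, and with each rat left out it lay between -9.58 and -7.63 and their mean share between 11.8% and 15.2% in the CL group and 0.0178% and 0.0569% in the FL group. The fit without the members, chosen after seeing the data, gave the same counts for every list.

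Over all genes 90.9% of the calls were higher in the FL group, and 66.8% with quantile normalization. Among all genes tested, 1381 were called higher and 139 lower, against 456 and 227 with quantile normalization. No paired analysis was made, because the paper describes groups formed at random and no pairs of rats. With 3 rats a group, a single library decides several calls near the limits, and when 1 is left out its group has 2. Read depth for each rat was not available, so counting error at low FPKM is unknown.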

Other observations

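Besides the genes above, 3 genes of chromosome 5 are described in the table as copies of the family under other symbols. They were chosen after their values were seen, and no test is given. All 3 were listed at 0 in every FL rat. ENSRNOG00000047520, described as the protein of LOC100912565, was at 2.38 in CL5, 41.0 in CL6 and 49.2 FPKM in CL7. ENSRNOG00000051227, described as the protein of LOC100909412, was at 0.25, 3.54 and 3.63 FPKM in the same rats, and LOC298111 (ENSRNOG00000050117), described as an alpha2u globulin, at 0.12, 0.58 and 0.35 FPKM. CL5 was the lowest CL rat in each of them, as it was for Mup5, but in LOC100912610 it was the highest. Similar copies may share reads, so the division between these genes is uncertain.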
